A study of Mus musculus with 14 samples.

Results

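The comparison set 3 arrays of CD24highCD49fmed cells against 2 arrays of CD24medCD49f-/low cells, both luminal populations of the mouse mammary gland and together 5 of the 14 arrays of the series. CD24 is a surface glycoprotein of mammary epithelium, and CD49f is the alpha 6 integrin by which basal cells hold to the basement membrane. The members were taken by array title alone. All 5 samples were sorted from mammary glands of virgin female C57BL/6 mice of 6 to 8 weeks, after enzymatic dissociation and depletion of cells with the blood, endothelial and erythroid antigens CD45, CD31 and Ter119, to which the methods add the fibroblast antigen CD140a. Each population is thus defined by a gate on 2 antigens and can hold more than 1 cell type. Whether the replicates are separate mice is not stated, so p-values measure only the spread between these arrays. The other 9 arrays hold CD24medCD49fmed myoepithelial cells and Thy-1+ and Thy-1- CD24medCD49fhigh basal cells, 3 arrays each, and serve here only as a range. Values are log2 signals relative to the mean of all 14 arrays, so that a value describes 1 gene across arrays and levels of different genes cannot be set side by side.

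The luminal layer of the mammary duct holds hormone-sensing cells, which express the estrogen and progesterone receptors and pass the hormone signal on through secreted factors, and hormone receptor-negative secretory cells. The second kind includes alveolar progenitors, known for the receptor Kit, the retinaldehyde dehydrogenase Aldh1a3 and the transcription factor Elf5, which drives the milk programme in pregnancy. Sorting by CD24 and CD49f enriches these kinds without separating them fully.

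Of 7190 rows tested (6044 genes with 1 symbol, and probe sets with several symbols or none), 217 or 3.02% were higher and 185 or 2.57% were lower in CD24highCD49fmed cells at a two-sided limma adjusted p under 0.05. The cell cycle accounted for 58 of the rises, 51 among 84 measured mitosis genes and 7 among 43 DNA replication genes, and for 0 of the falls. Mki67, the proliferation antigen gene, was -0.70, 0.41 and 0.50 on the CD24highCD49fmed arrays, against -2.62 and -2.84 on the CD24medCD49f-/low arrays. Outside the cell cycle lists, 136 named genes rose and 170 fell, and these are the subject of what follows. Each count of list members below stands against the 3.02% and 2.57% of all rows. The median difference over all rows was 0.15 log2, and with each array centred on its own median it was -0.02 and the split was 123 higher to 282 lower. Quantile normalization gave 138 higher and 246 lower. Of the 136 named rises 67 missed the threshold after median centring and 63 after quantile normalization, and of the 170 named falls 0 and 33 did, so that each such loss is given below beside the gene. The groups did not overlap in 2314 rows that were higher (32.2%) and in 1096 that were lower (15.2%). Deposited probe sets span at least 2.0 log2 over the 14 arrays, and values of 1 compared population alone can bring a gene over that limit. Counts and medians of the lists below are therefore not free of selection by the compared groups.

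The number of calls depended on which arrays were present. Without CD24medCD49f-/low replicate 1 no row passed the threshold by limma (770 at an unadjusted p under 0.05), and without replicate 2 of that population 314 did. Leaving out CD24highCD49fmed replicates 1, 2 and 3 left 662, 145 and 3 calls. In 1 fit of all 14 arrays no row passed (296 at an unadjusted p under 0.05), while the differences themselves were as before. Each difference is therefore given below with the values of the single arrays, and the calls named are those of the fit of these 5 arrays.

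Both populations carried luminal keratins at like values. Krt8 was 1.10, 1.00 and 1.10 on the CD24highCD49fmed arrays, against 1.07 and 1.10 on the CD24medCD49f-/low arrays, and Krt18 was 1.44, 1.32 and 1.43 against 1.35 and 1.49. The difference was -0.02 (SE 0.17) for Krt8 and -0.02 (SE 0.18) for Krt18. Of 23 measured luminal epithelial genes 0 rose and 1 fell, the mucin gene Muc1, with a median of -0.02. Krt5 and Krt14, the basal keratin genes, lay between -3.09 and -2.13 on all 5 arrays, and the list of 22 basal genes averaged between -2.52 and -2.24 on the 5 arrays, against 0.52 to 1.85 on the 9 others. The keratins and the basal list thus fitted the label of luminal cells in both populations.

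The names that the labels add to the gates were not matched by the lists of luminal subtype genes. Those lists were written with earlier results of these data known, and their measured members had passed the span limit, so they are a description and no test of the names. The labels call CD24highCD49fmed cells luminal progenitors and CD24medCD49f-/low cells differentiated luminal cells. Of 25 measured genes known from luminal progenitors and alveolar cells, however, 0 rose and 10 fell in CD24highCD49fmed cells, with a median of -0.79. With median centring 11 fell and with quantile normalization 7. Of 15 measured hormone-sensing genes 3 rose and 0 fell, with a median of 0.77. The 58 cell cycle rises were in CD24highCD49fmed cells too, which the paper describes as colony-forming and highly proliferative. The populations are therefore called by their gates. In RNA from a sorted pool, more cells of a kind and more RNA per cell cannot be told apart.

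**Figure D1:**
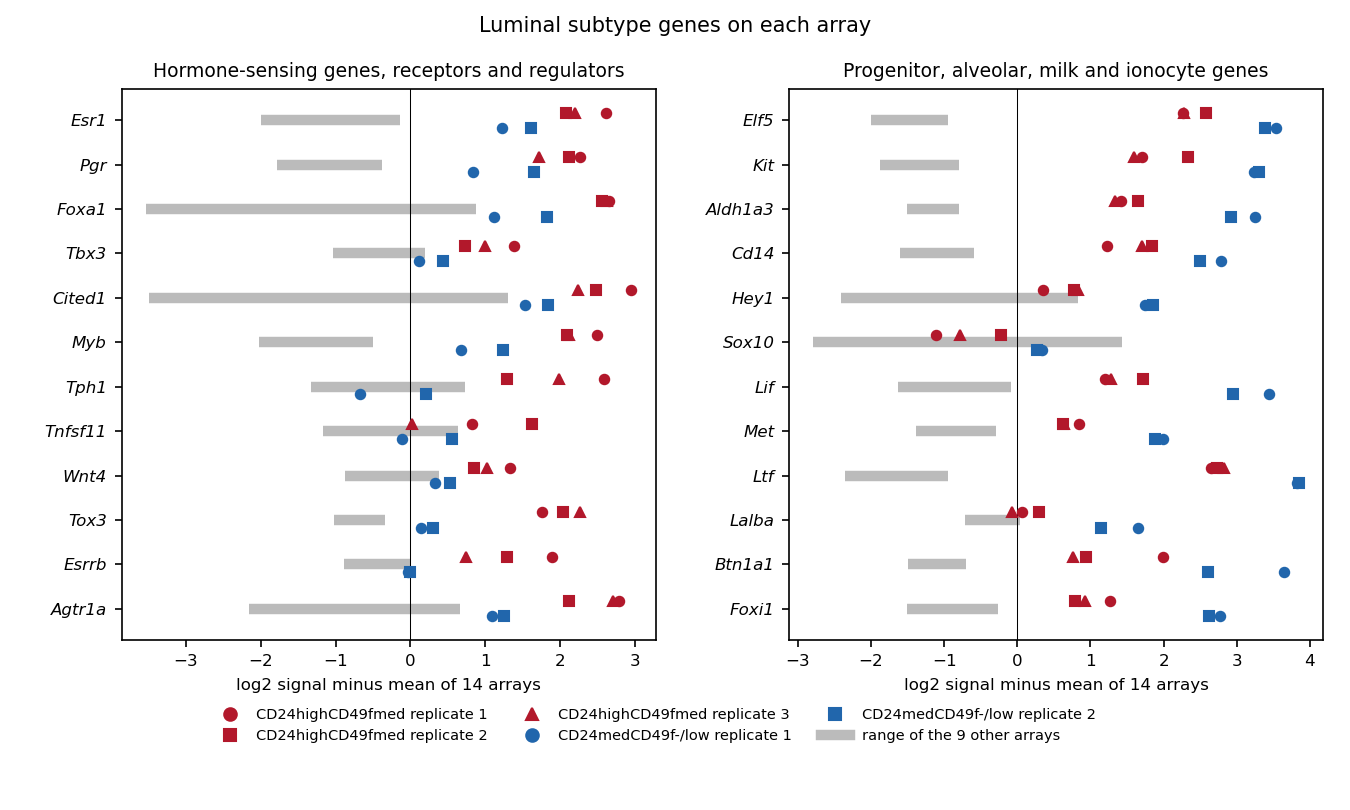
Log2 signal relative to the mean of 14 arrays for 24 luminal genes, one row each, with CD24highCD49fmed arrays in red, CD24medCD49f-/low arrays in blue and a grey bar for the range of the 9 other arrays. The 3 red points lie to the right of both blue points in 11 of the 12 genes on the left (Tnfsf11 overlaps) and to their left in all 12 on the right. The 24 genes were chosen with earlier results known and some come from other lists. Of all 15 measured hormone-sensing genes 10 were higher without overlap and 2 lower. Of the 25 progenitor and alveolar genes 1 was higher and 17 lower, against 32.2% and 15.2% of all rows. Esr1, Pgr, Tbx3, Cited1, Tnfsf11, Wnt4 and Sox10 did not pass the threshold.

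Genes known from hormone-sensing cells were among the rises outside the cell cycle. Foxa1, a pioneer factor that opens chromatin for the estrogen receptor, was 2.66, 2.56 and 2.64 on the CD24highCD49fmed arrays, against 1.12 and 1.83 on the CD24medCD49f-/low arrays. Its groups did not overlap, and the difference was 1.14 log2 (SE 0.23, limma adjusted p = 0.0311). Myb, a transcription factor gene that responds to estrogen in breast cells, was 2.50, 2.09 and 2.13 against 0.68 and 1.25, a difference of 1.28 (SE 0.23, limma adjusted p = 0.0253). Tph1, which encodes the rate-limiting enzyme of serotonin synthesis outside the brain, was 2.59, 1.29 and 1.99 against -0.67 and 0.21, a difference of 2.19 (SE 0.39, limma adjusted p = 0.0222). The Tph1 rise was 2.63 relative to CD24medCD49f-/low replicate 1 and 1.75 relative to replicate 2.

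The hormone receptor genes themselves lay the same way without passing. Esr1, the estrogen receptor gene, was 2.62, 2.08 and 2.20 on the CD24highCD49fmed arrays, against 1.23 and 1.62 on the CD24medCD49f-/low arrays (difference 0.88, SE 0.23, limma adjusted p = 0.0592). Pgr, the progesterone receptor gene, was 2.27, 2.12 and 1.72 against 0.84 and 1.66 (difference 0.79, SE 0.28, limma adjusted p = 0.119). Both were above every one of the 9 other arrays in all 5 luminal arrays, the highest of the others being -0.14 for Esr1 and -0.37 for Pgr. Among the paracrine mediators of progesterone, Wnt4 differed by 0.65 (SE 0.21) and Tnfsf11, which encodes RANKL, by 0.60 (SE 0.42), and neither passed. Cbr2 and Sostdc1 were the 2 of 15 hormone-sensing genes below 0, at -1.25 and -0.53, and neither passed.

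Among 49 measured luminal transcription factor genes 5 rose and 6 fell, with a median of 0.08 (-0.09 after median centring). Tox3, a nuclear factor gene linked to breast cancer risk in humans, had the largest rise, with 1.76, 2.04 and 2.27 on the CD24highCD49fmed arrays, against 0.14 and 0.30 on the CD24medCD49f-/low arrays (difference 1.80, SE 0.21, limma adjusted p = 0.0102). The 9 other arrays stayed at or below -0.34 for this gene. Esrrb and Esrrg, which encode estrogen-related orphan receptors, differed by 1.33 and 0.81 (SE 0.31 and 0.19, limma adjusted p = 0.0447 and 0.0429), and after median centring both calls were lost (limma adjusted p = 0.0711 and 0.0774), that of Esrrb also after quantile normalization (0.071). The list then held 3 rises and 9 falls with median centring and 4 and 7 with quantile normalization. The Creb5 fall was lost after quantile normalization (limma adjusted p = 0.0574). Foxi1, Creb5, Hey1, Elf5, Hlf and Sox6 were the 6 factors that fell.

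On a list of 29 measured receptor genes for hormones, neurotransmitters and cytokines, 4 rose and 0 fell, with a median of 0.21, and after median centring 3 rose and 1 fell. Receptor genes of other lists, such as Kit and Met, were among the falls. Ptger3, a receptor for prostaglandin E2, was 1.18, 1.79 and 1.53 on the CD24highCD49fmed arrays, against -1.79 and -1.26 on the CD24medCD49f-/low arrays. The difference of 3.02 log2, or 8.13-fold, was second to that of Pcp4 (SE 0.25, limma adjusted p = 0.00728). The 9 other arrays ran from -1.19 to 2.12 with a median of -0.14, and both CD24medCD49f-/low arrays lay below all of them. Agtr1a, the angiotensin II receptor gene, was 2.79, 2.13 and 2.72 against 1.10 and 1.26 (difference 1.37, SE 0.24, limma adjusted p = 0.0217). Il18r1, a subunit of the interleukin 18 receptor, differed by 1.29 and Lepr, the leptin receptor gene, by 1.16 (limma adjusted p = 0.0231 and 0.0333), and the Lepr call was lost under both other scalings and on its median probe set (a difference of 0.58, limma adjusted p = 0.116).

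The prostaglandin genes as a whole had no common direction. Of 10 measured, 3 rose (Ptger3 and the prostaglandin reductase genes Ptgr1 and Ptgr2, by 0.93 and 0.87) and 1 fell. That one was Ptges, the prostaglandin E synthase gene, with 0.19, -0.06 and -0.28 on the CD24highCD49fmed arrays, against 1.95 and 0.74 on the CD24medCD49f-/low arrays (difference -1.39, SE 0.34, limma adjusted p = 0.0497). Against CD24medCD49f-/low replicate 2 alone the Ptges difference was -0.79, and against replicate 1 it was -2.00. Ptgs2, the inducible cyclooxygenase gene, was -0.64, -1.71 and -1.50 against 1.57 and -0.70 and did not pass (difference -1.72, SE 0.59), with a single array, CD24medCD49f-/low replicate 1, above 0. The Ptgr1 and Ptgr2 calls were lost under both other scalings.

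**Figure D2:**
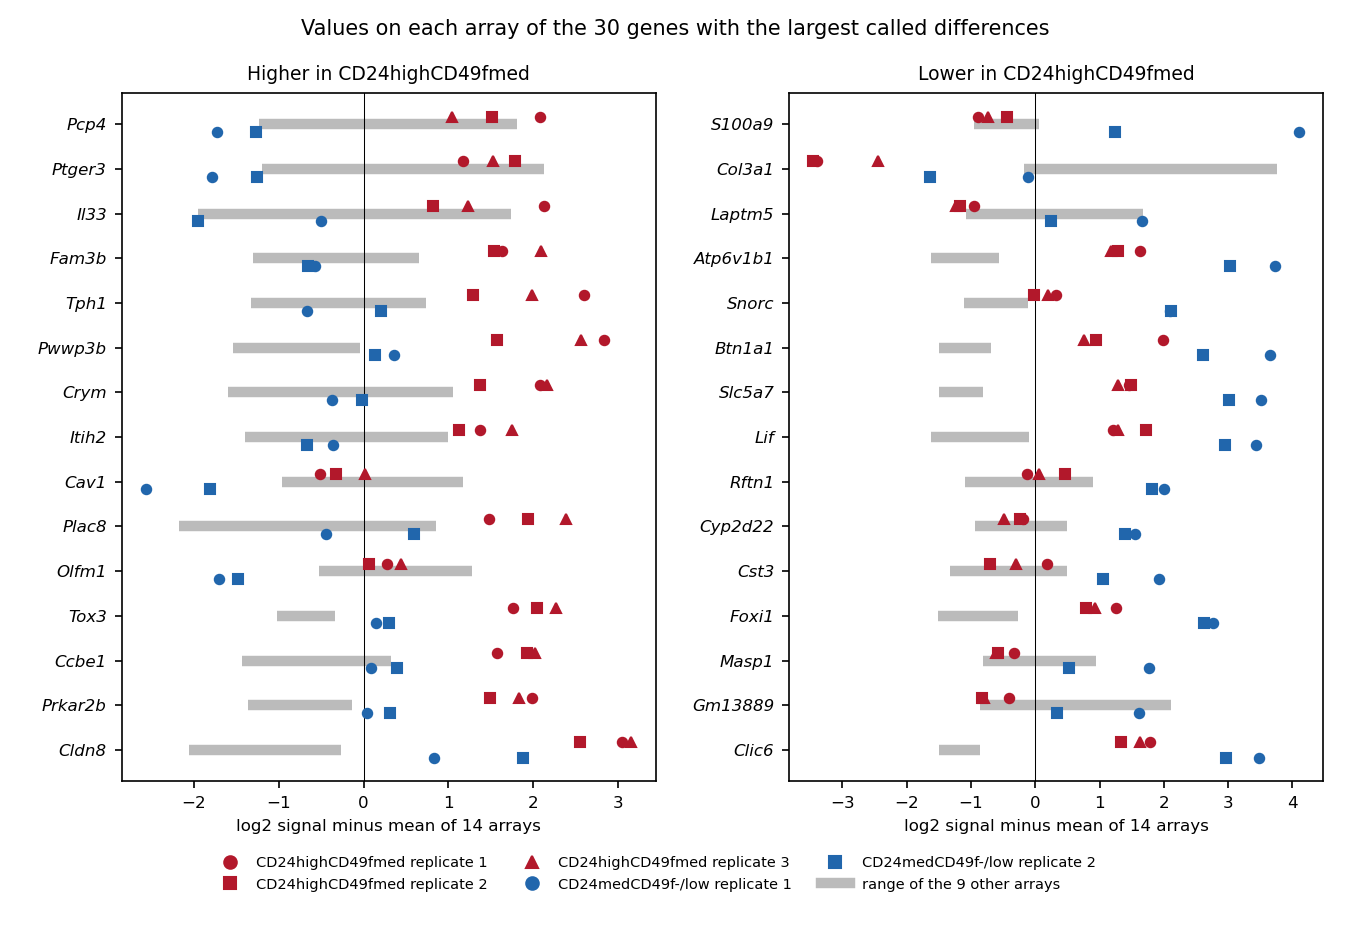
Log2 signal relative to the mean of 14 arrays for the 15 genes with the largest rise (left) and the 15 with the largest fall (right) among called genes outside the cell cycle lists, with CD24highCD49fmed arrays in red, CD24medCD49f-/low arrays in blue and the range of the 9 other arrays in grey. Red and blue points do not overlap in any of the 30, and for S100a9 the 2 blue points are far apart, at 4.10 and 1.25.

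The largest rise outside the cell cycle was that of Pcp4, which encodes a small calmodulin-binding protein. It was 2.08, 1.51 and 1.05 on the CD24highCD49fmed arrays, against -1.73 and -1.27 on the CD24medCD49f-/low arrays, 8.25-fold (difference 3.04, SE 0.30, limma adjusted p = 0.00728). Il33, the gene of an alarmin cytokine of epithelial nuclei, was 2.13, 0.82 and 1.23 against -0.50 and -1.95 (difference 2.62, SE 0.47, limma adjusted p = 0.0232), and here CD24medCD49f-/low replicate 2 was the lower of the pair. Fam3b, which encodes a secreted cytokine-like protein known from pancreatic islets, was 1.64, 1.53 and 2.09 against -0.58 and -0.65 (difference 2.37, SE 0.22, limma adjusted p = 0.00728). Ptger3, Pcp4 and Fam3b were the 3 calls that remained without CD24highCD49fmed replicate 3.

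The other large rises were of mixed kinds. Crym, which encodes a thyroid hormone-binding crystallin, differed by 2.06, Itih2, a hyaluronan-binding inter-alpha-trypsin inhibitor chain gene, by 1.93, and Prkar2b, a regulatory subunit of protein kinase A, by 1.60 (limma adjusted p = 0.0117, 0.0113 and 0.0122). Pwwp3b differed by 2.08, Plac8 by 1.86, the olfactomedin gene Olfm1 by 1.85 and Ccbe1, a secreted factor of lymphatic vessel growth, by 1.60 (limma adjusted p = 0.0197, 0.0267, 0.00795 and 0.0117). Cav1, the caveolin gene, which belongs to the basal list, was -0.52, -0.33 and 0.01 on the CD24highCD49fmed arrays, against -2.57 and -1.81 on the CD24medCD49f-/low arrays. The Plac8 call was lost after quantile normalization (limma adjusted p = 0.0511). The Cav1 rise of 1.91 (SE 0.27, limma adjusted p = 0.0129) was the only call among the 22 basal genes (after median centring 1 rose and 2 fell), and both CD24medCD49f-/low arrays lay below all 9 others. Cav1, Olfm1 and Ptger3 were alike in this: the CD24highCD49fmed arrays lay inside the range of the others and the CD24medCD49f-/low arrays below it.

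Progenitor and alveolar genes were among the falls. Kit, the stem cell factor receptor gene, was 1.70, 2.34 and 1.60 on the CD24highCD49fmed arrays, against 3.24 and 3.30 on the CD24medCD49f-/low arrays. The fall was nearly the same against replicate 1 (-1.36) and replicate 2 (-1.42), with a difference of -1.39 (SE 0.25, limma adjusted p = 0.0222). Aldh1a3 was 1.42, 1.65 and 1.33 against 3.25 and 2.92 (difference -1.62, SE 0.20, limma adjusted p = 0.0113). Elf5, the master regulator of alveolar fate, was 2.26, 2.58 and 2.28 against 3.54 and 3.39 (difference -1.09, SE 0.19, limma adjusted p = 0.0219). The paper likewise reports enriched Elf5 expression in CD24medCD49f-/low cells of this strain.

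All 3 genes were above the 9 other arrays in both luminal populations, so that CD24highCD49fmed cells held an intermediate value. The highest of the others was -0.80 for Kit, -0.80 for Aldh1a3 and -0.95 for Elf5. After quantile normalization the Kit, Elf5, Ltf and Cd14 falls missed the threshold (limma adjusted p = 0.0786, 0.0939, 0.0838 and 0.105), and that of Aldh1a3 passed. Lif, the leukaemia inhibitory factor gene, had the largest fall of the list, with 1.21, 1.72 and 1.28 on the CD24highCD49fmed arrays, against 3.44 and 2.95 on the CD24medCD49f-/low arrays (difference -1.79, SE 0.24, limma adjusted p = 0.0117). Hey1, a transcriptional repressor induced by Notch, fell by 1.15, and Cd14, the lipopolysaccharide co-receptor gene that also marks luminal progenitors, by 1.05 (limma adjusted p = 0.0246 and 0.0397). Stat5a, Runx1, Socs2 and Rspo1 were the 4 of 25 above 0, between 0.13 and 0.50, and none of them passed.

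Of 14 measured genes of milk proteins and the milk fat globule, 6 fell and 0 rose, with a median of -0.87. Btn1a1, the butyrophilin gene of the milk fat globule membrane, was 1.99, 0.94 and 0.76 on the CD24highCD49fmed arrays, against 3.65 and 2.60 on the CD24medCD49f-/low arrays (difference -1.90, SE 0.41, limma adjusted p = 0.0375). Xdh, which encodes the xanthine dehydrogenase needed for fat globule secretion, fell by 1.49, Muc1 by 1.63, the alpha-lactalbumin gene Lalba by 1.30, the globule coat gene Mfge8 by 1.25 and the lactoferrin gene Ltf by 1.10 (limma adjusted p between 0.0129 and 0.0201). The casein genes did not pass. Csn3 was 1.86, 2.55 and 2.14 against 3.23 and 2.98 (limma adjusted p = 0.0572), and Csn2, the beta-casein gene, was -0.18, 1.70 and -0.11 against 0.82 and -0.03, its highest value being on CD24highCD49fmed replicate 2.

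Of 27 genes of lipid synthesis and uptake 2 rose and 5 fell, with a median of 0.19. The falls included both desaturases of polyunsaturated fatty acids, Fads1 and Fads2. Fads1 was -0.05, 0.16 and -0.22 on the CD24highCD49fmed arrays, against 1.52 and 1.13 on the CD24medCD49f-/low arrays, and Fads2 0.06, 0.27 and -0.26 against 1.46 and 1.18 (differences -1.36 and -1.30, limma adjusted p = 0.0158 and 0.0199). Lipa, the lysosomal acid lipase gene, Lpcat1, an acyltransferase gene of phosphatidylcholine, and Mgll, the monoacylglycerol lipase gene, fell by 1.33, 1.12 and 0.96. Acsl4 and Gpam, which activate fatty acids and start glycerolipid synthesis, rose by 1.09 and 0.86 (limma adjusted p = 0.0333 and 0.043). The Gpam call was lost after median centring and after quantile normalization (limma adjusted p = 0.0699 and 0.052). The cholesterol and fatty acid synthesis genes Hmgcs1, Idi1, Lss, Fdps, Acly and Srebf1 lay between 0.08 and 0.57, and none passed. Scd2, Elovl7, Elovl6 and Elovl1, also of fatty acid synthesis, were at 1.13, 0.77, 0.64 and 0.32 and Scd1 at -0.45, and none of these passed either.

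Calls among genes of ion, water and solute transport were falls: 10 of 42 fell and 0 rose, with a median of -0.26. Foxi1, the transcription factor of proton-secreting ionocytes in kidney and airway, was 1.26, 0.79 and 0.93 on the CD24highCD49fmed arrays, against 2.77 and 2.63 on the CD24medCD49f-/low arrays (difference -1.70, SE 0.20, limma adjusted p = 0.0113). Atp6v1b1, the proton pump subunit gene that Foxi1 controls in those cells, was 1.63, 1.28 and 1.18 against 3.74 and 3.03 (difference -2.02, SE 0.25, limma adjusted p = 0.0116). Slc5a7, the choline transporter gene, was 1.46, 1.49 and 1.29 against 3.51 and 3.02 (difference -1.85, SE 0.21, limma adjusted p = 0.0102). For all 3 genes the 9 other arrays were below both luminal populations, at or under -0.27, -0.56 and -0.81 in that order.

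The other transporters that fell act at several membranes. Clic6, a chloride channel protein gene, fell by 1.64, Slc5a1, the sodium-glucose cotransporter gene, by 1.51, and Kcnk5, a potassium channel gene, by 1.42 (limma adjusted p = 0.0129, 0.0219 and 0.0288), and the Slc5a1 call was lost after quantile normalization (limma adjusted p = 0.0524). Slc1a1, Scnn1b, Slc15a2 and Atp2b1, a glutamate transporter, a sodium channel subunit, a peptide transporter and a calcium pump, fell by between 1.05 and 1.18. Car2, the carbonic anhydrase gene, and the water channel gene Aqp1 lay apart on the CD24medCD49f-/low arrays and did not pass. Car2 was 1.07, 0.90 and 0.80 on the CD24highCD49fmed arrays, against 3.27 and 1.19, and Aqp1 0.12, -1.07 and -1.21 against 1.56 and -0.30.

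Several NF-kB target and cytokine genes fell. Of 25 measured, 6 fell (Lif, Ccrl2, Cxcl2, Tnfaip3, Tnf and Nfkbia) and 1 rose, with a median of -0.96. The median was -1.09 relative to CD24medCD49f-/low replicate 1 and -0.54 relative to replicate 2, and 23 and 19 of the 25 lay below 0. Some members pass the span limit on deposited probe sets only through high CD24medCD49f-/low values. Ccrl2 lay between -0.80 and 0.51 on all other arrays and Tnf between -0.70 and 0.48, so the list's count and median are not free of that selection. NF-kB is a transcription factor held in the cytoplasm by inhibitors such as the product of Nfkbia and released by cytokines, and both Nfkbia and Tnfaip3, a deubiquitinase gene that ends the signal, are its own targets. Their promoters are shown with that of Cxcl2, a chemokine gene for neutrophils, because they are the members that fell and hold the NF-kB motif.
The sequences are RefSeq's 250 bases before the gene's start, 5′ to 3′ on the gene's strand, with matches to the NF-kB motif (GGG, any 2 bases, TTTCC) or its reverse complement in capitals.
Nfkbia, GRCm38.p6 chr12:55492648-55492897, minus strand: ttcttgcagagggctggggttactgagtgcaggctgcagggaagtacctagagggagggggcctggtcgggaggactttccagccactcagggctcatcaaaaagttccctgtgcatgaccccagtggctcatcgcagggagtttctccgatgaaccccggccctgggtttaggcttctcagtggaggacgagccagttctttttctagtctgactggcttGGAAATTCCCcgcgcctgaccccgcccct
Tnfaip3, GRCm38.p6 chr10:19015411-19015660, minus strand: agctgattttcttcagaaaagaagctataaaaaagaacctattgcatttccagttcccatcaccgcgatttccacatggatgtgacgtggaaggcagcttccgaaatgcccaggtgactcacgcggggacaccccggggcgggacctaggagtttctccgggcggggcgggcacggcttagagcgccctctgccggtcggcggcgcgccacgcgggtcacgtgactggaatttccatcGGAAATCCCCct
Cxcl2, GRCm38.p6 chr5:90903649-90903898, plus strand: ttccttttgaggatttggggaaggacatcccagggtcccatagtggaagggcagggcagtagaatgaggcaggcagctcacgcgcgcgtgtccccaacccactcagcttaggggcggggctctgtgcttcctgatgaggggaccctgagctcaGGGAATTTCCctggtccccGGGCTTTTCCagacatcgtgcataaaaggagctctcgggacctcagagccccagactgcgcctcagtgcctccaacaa

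The match began 29 bases before the start in Nfkbia, 12 in Tnfaip3, and 97 and 78 in Cxcl2. Nfkbia was 0.44, 0.70 and 0.49 on the CD24highCD49fmed arrays, against 1.46 and 1.54 on the CD24medCD49f-/low arrays (difference -0.96, SE 0.18, limma adjusted p = 0.0269). Tnfaip3 was -0.02, -0.12 and 0.07 against 1.24 and 1.06 (difference -1.17, SE 0.18, limma adjusted p = 0.0158). In both genes the 2 CD24medCD49f-/low arrays lay close together. Cxcl2 was 0.83, 0.67 and 1.20 against 2.90 and 1.74 (difference -1.42, SE 0.33, limma adjusted p = 0.0463), -2.00 relative to replicate 1 and -0.84 relative to replicate 2. Ccrl2, an atypical chemokine receptor gene, moved likewise (-2.18 and -1.08), while Tnf, the tumour necrosis factor gene, was 0.17, 0.01 and 0.29 against 1.45 and 1.11 (difference -1.12, SE 0.20, limma adjusted p = 0.0219).

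The motif was present, on either strand within 300 bases around the start, in 512 of 27025 genes with a promoter in the table (1.89%) and in 7 of 20 members of the list that had one. Because the list was written to hold known NF-kB targets, its higher share is no result about the falls. The other 4 were Csf1, Il1rn, Il6 and Bcl2l1, which did not pass, and 3 of the 6 members that fell held a match. In the same windows 5 other motifs were searched: the cyclic AMP element TGACGTCA (2.03% of genes) and its variant TGACGCAA (0.56%), the antioxidant element (TGAC, any 3 bases, GCA, 3.45%), the E-box CACGTG (8.09%) and the AP-1 site TGANTCA (8.97%). The cyclic AMP element was in 3 of 21 immediate early genes, Dusp8, Ppp1r15a and Btg2, of which Dusp8 and Ppp1r15a fell. The E-box was in Per1, Cry1 and Bhlhe41 of 7 clock genes, in 5 of 21 immediate early genes and in 0 of 23 oxidative stress and detoxification genes. The antioxidant element was in 1 of those 23, Txnrd1, and in 0 of the 5 among them that fell. It was also in Usp2, a clock gene that fell, and in the stress genes Hsph1 and Dnajb1, which did not pass. The cyclic AMP element was also in Hlf, another clock gene that fell. The AP-1 site was in 0 of 21 immediate early genes, 3 of the 23 and 5 of 20 genes of the NF-kB list. The Tnfaip3 window above also holds an E-box and an AP-1 match, neither overlapping the letters in capitals.

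Some immediate early, stress and clock genes fell. Of 29 immediate early and stress genes 4 fell and 0 rose, with a median of -0.53. Fosl1, an AP-1 subunit gene, fell by 1.37 (a call lost after quantile normalization, limma adjusted p = 0.0677), the nuclear receptor gene Nr4a3 by 1.02, the translation stress gene Ppp1r15a by 0.99 and the phosphatase gene Dusp8 by 0.97 (limma adjusted p = 0.0379, 0.0435, 0.0269 and 0.031). The heat shock gene Hspa1a did not pass. It was 0.92, -0.50 and -0.41 on the CD24highCD49fmed arrays, against 0.95 and -0.60 on the CD24medCD49f-/low arrays, replicate 1 being high in both populations. Of 7 clock genes 3 fell. Per1, a period gene of the circadian repressor, was 0.17, 0.15 and -0.14 against 1.28 and 1.44 (difference -1.30, SE 0.19, limma adjusted p = 0.0136), and Usp2 and Hlf, outputs of the clock, fell by 1.16 and 1.08. The time of day at which the glands were taken is not given in the sources used here.

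Secreted defence and acute phase genes split: 4 of 37 rose and 12 fell, with a median of -0.77. S100a9, an alarmin gene of neutrophils that secretory epithelium also expresses, was -0.89, -0.43 and -0.74 on the CD24highCD49fmed arrays, against 4.10 and 1.25 on the CD24medCD49f-/low arrays. The fall was -4.79 relative to replicate 1 and -1.94 relative to replicate 2, -3.36 over both (SE 0.66, limma adjusted p = 0.0296). The complement-activating protease gene Masp1 was -0.34, -0.58 and -0.62 against 1.77 and 0.52, and the protease inhibitor gene Cst3 0.18, -0.71 and -0.30 against 1.92 and 1.06 (differences -1.66 and -1.76, limma adjusted p = 0.031 and 0.025). Falls that were alike against both arrays were those of Ltf (-1.09 and -1.11), of Ptx3, a soluble pattern receptor gene (-1.35 and -1.22), of Cp, the ceruloplasmin gene (-1.36 and -1.13), and of Cd55, a complement inhibitor gene (-0.89 and -0.86). Itih2, Plac8, the fibrinogen-like gene Fgl1 and the protease gene Ctse rose, the last 2 by 1.12 and 0.87, and the Ctse call was lost after median centring (limma adjusted p = 0.0753).

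Genes of myeloid cells lay beside these falls. The 9 measured myeloid genes averaged -0.17, -0.15 and -0.11 on the CD24highCD49fmed arrays, against 1.27 and 0.52 on CD24medCD49f-/low replicates 1 and 2, and the 9 neutrophil genes -0.08, -0.07 and -0.13 against 1.85 and 0.47. They are what was measured of 35 and 25 listed genes. Deposited probe sets span at least 2.0 log2, and high CD24medCD49f-/low values alone can bring a gene over that limit. S100a9, for example, lay between -0.95 and 0.06 on all other arrays. The averages are thus not free of selection by the compared group. Of the myeloid genes 3 fell (Laptm5, Marco and Cd14) and of the neutrophil genes 3 (S100a9, Lcn2 and Ltf), but Cd14, Lcn2, Ltf and S100a9 are also known from mammary epithelium. Above 0 were 1 myeloid gene, Lcp1 at 0.97, and 2 neutrophil genes, Il1r2 at 0.56 and Stfa3 at 0.38, and none of them passed. Laptm5, a lysosomal membrane gene of leukocytes, was -0.96, -1.18 and -1.23 on the CD24highCD49fmed arrays, against 1.67 and 0.25 on the CD24medCD49f-/low arrays (difference -2.08, SE 0.36, limma adjusted p = 0.0219). Ptprc, which encodes the CD45 antigen used for depletion, was -0.39, -0.72 and -0.31 against 0.19 and -0.22 and did not pass. Mpo, the myeloperoxidase gene of neutrophil granules, was -0.30, -0.62 and -0.22 against 2.29 and -0.18, and Lyz2 -0.59, -0.34 and -0.72 against 2.30 and 0.22. The near-identical Lyz1 and Lyz2 may share probe signal. For Mpo, Lyz2 and S100a8 CD24medCD49f-/low replicate 2 lay far closer to the CD24highCD49fmed arrays than replicate 1 did. The part of leukocyte RNA in the falls of defence and NF-kB genes was not tested.

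**Figure D3:**
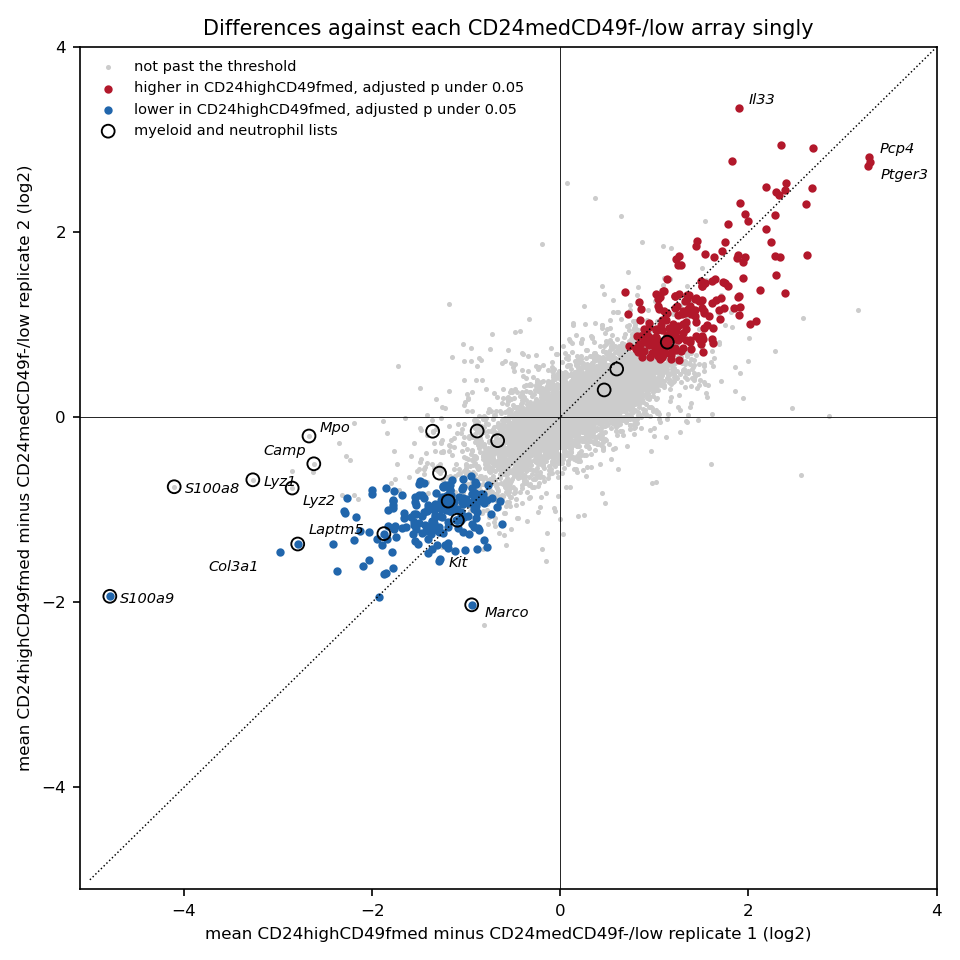
Mean of the 3 CD24highCD49fmed arrays minus CD24medCD49f-/low replicate 1 (x axis, log2) and minus replicate 2 (y axis, log2), one point per row, with rows called higher in red, rows called lower in blue, other rows in grey, myeloid and neutrophil genes circled, and the dotted line where both differences are equal. Red and blue points keep to the 2 quadrants of like sign, and the circled S100a8, Lyz1, Lyz2, Mpo and Camp lie far to the left of the line.

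The size of the differences was compared between the 2 CD24medCD49f-/low arrays. In all 136 named rises and 170 named falls outside the cell cycle the groups did not overlap, so that a like sign relative to each array follows from the selection and is no separate result. The median size of the difference was 1.21 relative to replicate 1 and 0.94 relative to replicate 2 for the rises, and 1.28 and 1.04 for the falls. Differences of 1 log2 or more numbered 112 of the 136 relative to replicate 1 and 54 relative to replicate 2, and 132 and 95 of the 170 falls. Of the 101 genes named by rule, 10 changed by more than 1.5 times once replicate 1 was left out: Cldn8, S100a9, Col3a1, Laptm5, Masp1, Gm13889, Ccrl2, Cxcl2, Ptges and Sfrp2. Without it the differences were 1.04 for Cldn8, -1.94 for S100a9, -1.46 for Col3a1, -1.37 for Laptm5 and -1.04 for Masp1. They were -1.01 for Gm13889, -1.08 for Ccrl2, -0.84 for Cxcl2, -0.79 for Ptges and -0.87 for Sfrp2. Marco, a scavenger receptor gene of macrophages, did so without replicate 2, with -0.94 in place of -1.49.

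Genes against oxidative stress and foreign compounds moved both ways, 4 of 30 up and 6 down, with a median of 0.33. Nqo1, Srxn1 and Ephx1, which encode a quinone reductase, sulfiredoxin and a microsomal epoxide hydrolase, fell by 1.38, 1.33 and 1.27 (limma adjusted p = 0.0175, 0.0134 and 0.0158). Pir, Gclm and Pon3, which encode pirin, a subunit of the glutathione-making ligase and a paraoxonase, rose by 1.23, 1.19 and 1.16 (limma adjusted p = 0.0158, 0.0248 and 0.0286). Nqo1, Srxn1 and Gclm are all known targets of the same stress factor, NRF2. Nqo1 was -0.55, -0.57 and -0.36 on the CD24highCD49fmed arrays, against 1.17 and 0.60 on the CD24medCD49f-/low arrays, and Gclm was 0.48, 0.77 and 1.00 against -0.59 and -0.29, so that these 2 targets lay in opposite directions on every array pair.

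Of 55 measured growth factor signalling genes 3 rose and 6 fell, Kit among them, with a median of -0.09, where 3.02% and 2.57% of all rows did. After median centring 1 rose and 12 fell, with a median of -0.26, and after quantile normalization 1 rose and 9 fell. Met, the hepatocyte growth factor receptor gene, was 0.85, 0.62 and 0.64 on the CD24highCD49fmed arrays, against 2.00 and 1.88 on the CD24medCD49f-/low arrays (difference -1.24, SE 0.18, limma adjusted p = 0.0136). Igf1r, the receptor gene for insulin-like growth factor 1, and Irs2, which relays its signal, fell by 0.94 and 1.02, and the ligand genes Tgfb3 and Angpt1 fell by 1.14 and 1.00 (limma adjusted p between 0.0179 and 0.0337). Grb14, an adaptor gene that restrains the insulin receptor, rose by 1.42 (SE 0.24, limma adjusted p = 0.0197), and its call was kept under both other scalings. Bdnf, a neurotrophin gene, and Fgf13 were higher by 0.85 and 0.93, calls that were lost after median centring (limma adjusted p = 0.0719 and 0.0677) and after quantile normalization (0.0575 and 0.0524).

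Of 30 Wnt genes 2 rose and 3 fell (0 and 5 after median centring, 1 and 3 after quantile normalization), and of 16 Notch genes 1 rose and 1 fell (0 and 2 under both other scalings). Of all rows 3.02% rose and 2.57% fell, and calls this few describe single genes. Both noncanonical Wnt5 ligands were called, in opposite directions. Wnt5a was 1.11, 0.70 and 0.40 on the CD24highCD49fmed arrays, against -0.77 and -0.14 on the CD24medCD49f-/low arrays (difference 1.19, SE 0.27, limma adjusted p = 0.043). Wnt5b was -0.19, 0.53 and 0.30 against 1.58 and 1.48 (difference -1.32, SE 0.24, limma adjusted p = 0.0231). Lgr6, an R-spondin receptor gene, fell by 1.35, the secreted Wnt antagonist gene Sfrp2 by 1.57, and the receptor gene Fzd4 rose by 1.01 (limma adjusted p = 0.0187, 0.0414 and 0.0355). In the Notch pathway the ligand gene Jag1 rose by 0.98 and the target gene Hey1 fell. The Wnt5a, Fzd4 and Jag1 calls were lost after median centring (limma adjusted p = 0.0628, 0.0517 and 0.0753) and those of Wnt5a and Jag1 also after quantile normalization (0.0641 and 0.0777), and on its median probe set the Jag1 rise was 0.56 (limma adjusted p = 0.21). Of 8 retinoid genes Aldh1a3 and Crabp2, which encodes a retinoic acid-binding protein, fell, Crabp2 by 1.17 (limma adjusted p = 0.0311), and 0 rose.

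Claudin genes were called in both directions. Cldn8, a claudin gene of tight epithelia, was 3.05, 2.55 and 3.15 on the CD24highCD49fmed arrays, against 0.83 and 1.88 on the CD24medCD49f-/low arrays (difference 1.56, SE 0.32, limma adjusted p = 0.0327), and the call was lost after quantile normalization (limma adjusted p = 0.0518). Cldn10 rose by 1.12 and the uroplakin gene Upk3a by 1.47, while Cldn2, a claudin of leaky, cation-selective junctions, fell by 1.09 and Muc20 by 1.38 (limma adjusted p = 0.0353, 0.0129, 0.0286 and 0.0287). In all, 4 of 36 genes of claudins, junctions and mucins rose and 3 fell, and Cldn3, Cldn4 and Cldn7 did not pass, at -0.29, -0.62 and -0.28.

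Of 41 extracellular matrix and adhesion genes 2 rose and 8 fell, with a median of -0.37. Col3a1, a fibrillar collagen gene of fibroblasts, was -3.39, -3.45 and -2.44 on the CD24highCD49fmed arrays, against -0.11 and -1.64 on the CD24medCD49f-/low arrays (difference -2.22, SE 0.45, limma adjusted p = 0.0318). All CD24highCD49fmed arrays lay under the lowest of the 9 others, -0.18, and so did CD24medCD49f-/low replicate 2, while replicate 1 did not. The 16 fibroblast genes averaged -1.33, -1.30 and -1.13 on the CD24highCD49fmed arrays, against -0.65 and -1.01 on CD24medCD49f-/low replicates 1 and 2, and 2 fell, Col3a1 and Sfrp2. In all, 14 of the 16 lay below 0, and 2, Col6a3 and Gsn, above it. Among those that did not pass were Dpt at -1.07, Pdgfra at -0.75, Col1a2 at -0.82 and Dcn at -0.31 (limma adjusted p = 0.0524, 0.0538, 0.0991 and 0.481). The methods list CD140a, the antigen that Pdgfra encodes and fibroblasts carry, among the depleted lineages. With median centring 4 of the list fell and with quantile normalization 1, Col3a1, the Sfrp2 call being lost (limma adjusted p = 0.099). The part of fibroblast RNA in the falls of Col3a1 and Sfrp2 was not tested. The proteoglycan gene Gpc6, the integrin gene Itga8 and the guidance gene Ntn1 fell by 1.44, 1.37 and 1.29 (limma adjusted p = 0.0117, 0.0165 and 0.0129), each by like amounts against the 2 arrays. Npnt, a basement membrane gene that binds Itga8, and Cthrc1 rose by 1.18 and 1.25 (limma adjusted p = 0.0222 and 0.0311), and on its median probe set the Npnt difference was 0.69 (limma adjusted p = 0.0861). The Cthrc1 call was lost after quantile normalization (limma adjusted p = 0.0672).

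**Figure D4:**
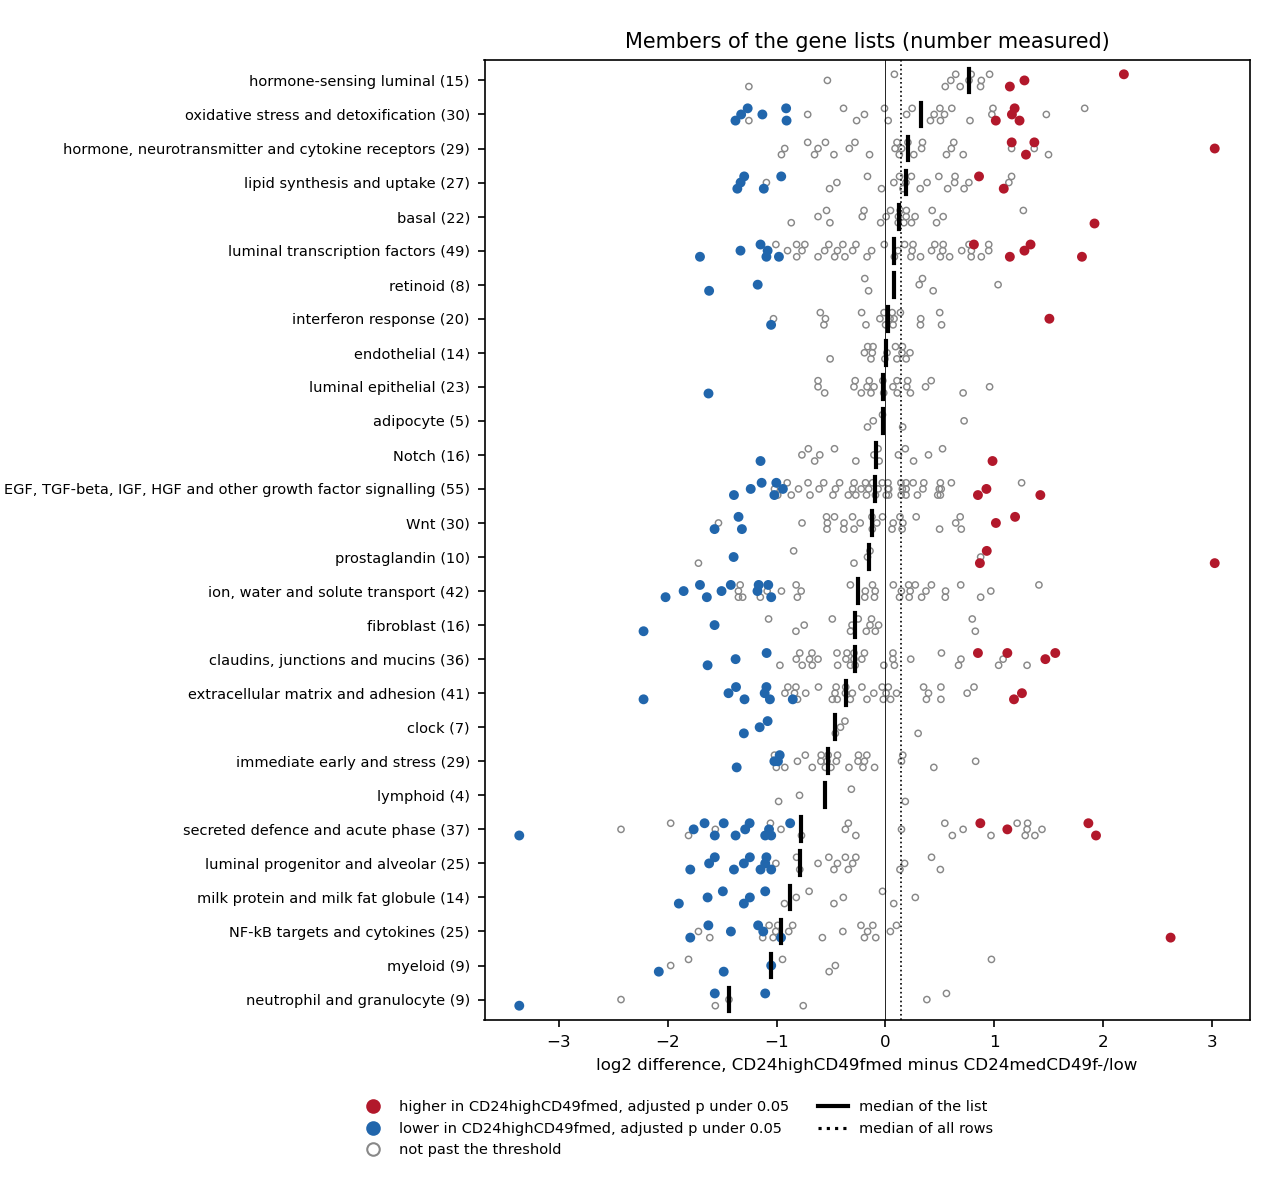
Difference between CD24highCD49fmed and CD24medCD49f-/low arrays (x axis, log2) for each measured member of 28 gene lists outside the cell cycle, ordered by median, with members called higher in red, members called lower in blue, other members open, a black bar at each list's median and a dotted line at the median of all rows, 0.15. Hormone-sensing genes have the highest median, 0.77, and neutrophil genes the lowest, -1.44.

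Endothelial, adipocyte and lymphoid markers were not called by limma. The 14 endothelial genes had a median of 0.00 (-0.17 with each array centred on its median), the 5 adipocyte genes -0.03 and the 4 lymphoid genes -0.55. All of the endothelial genes lay between -0.51 and 0.23. Lists share members, and each gene was counted in every list that holds it.

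The position relative to the 9 other arrays was counted for rises and falls. Among the 136 named genes that rose outside the cell cycle, all 3 CD24highCD49fmed arrays exceeded every other array in 77, and both CD24medCD49f-/low arrays did so in 27. Among the 170 that fell, the numbers were 46 for the CD24highCD49fmed arrays and 98 for the CD24medCD49f-/low arrays. In percent these were 56.6 and 19.9 of the rises and 27.1 and 57.6 of the falls, against 27.4 and 21.9 of all 5917 such genes. The genes were selected for a difference between these populations. A larger share in the population with the higher values therefore follows at least in part from the selection and is no separate result. Both CD24medCD49f-/low arrays were below all 9 others in 19 of the rises (14.0%), Ptger3, Cav1 and Olfm1 among them, and in 716 of all 5917 genes (12.1%). All 3 CD24highCD49fmed arrays were below all 9 others in 24 of the falls (14.1%), Col3a1 among them, and in 744 of all genes (12.6%). The shares below all 9 others were near those of all genes.

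Some large falls belonged to no list. Snorc, a proteoglycan gene known from cartilage, was 0.33, -0.02 and 0.19 on the CD24highCD49fmed arrays, against 2.10 and 2.12 on the CD24medCD49f-/low arrays (difference -1.94, SE 0.19, limma adjusted p = 0.00728), and the 2 CD24medCD49f-/low arrays differed by less than any pair of CD24highCD49fmed arrays. Rftn1, which encodes the lipid raft protein raftlin, was -0.12, 0.46 and 0.06 against 2.01 and 1.82 (difference -1.78, SE 0.22, limma adjusted p = 0.0113). Cyp2d22, a cytochrome P450 gene, fell by 1.77 and Gm13889, a predicted gene, by 1.65 (limma adjusted p = 0.00795 and 0.0337). Gm13889 was 1.62 and 0.33 on the 2 CD24medCD49f-/low arrays and its call was lost after quantile normalization.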

How the data were processed

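RNA of the sorted cells was amplified in 2 cycles and hybridised to Affymetrix mouse expression arrays. The authors deposited log2 values, normalized by RMA and centred on each probe set's mean over the 14 arrays, and the submitters' notes also name GCRMA. The 9645 deposited probe sets all span at least 2.0 log2 over the arrays, so genes with smaller changes were not tested, and no counts or depth exist for arrays: their number limits the precision.

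Of these probe sets 8499 had 1 gene symbol, 199 several and 947 none. Probe sets of 1 symbol were averaged per gene. The 5 luminal arrays were fitted with limma 3.58.1 (R 4.3.3) without intensity filter, and p-values were two-sided and Benjamini-Hochberg adjusted over 7190 rows. Named genes were the 15 largest called differences in each direction outside the cell cycle lists and up to 6 called genes of each list, 101 in all, besides list members given for context. Members and lists were chosen with earlier results of these data known. The authors' rank products (p under 0.01, unadjusted), array weights, scalings, probe set rules and left-out arrays were alternatives. On simulated data for this comparison over 7190 rows, limma recovered 38 of 50 rows changed by 1 log2 and all 50 changed by 2 log2, and called 14 unchanged rows in the same run. Promoters are RefSeq's (GRCm38.p6).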

Additional observations from a re-analysis of the deposited data

How the results depend on the processing

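Against 402 calls by limma, array weights gave 727 calls, 1 fit of all 14 arrays 0 (296 at an unadjusted p under 0.05), and leaving out 1 array between 0 and 662. A fit without 1 of the 2 CD24medCD49f-/low arrays assumes that the lone array varies like the CD24highCD49fmed arrays. Other settings stayed within 1.5 times: 405 calls with each array centred on its median, 384 after quantile normalization, 499 with each probe set on its own row, 289 with an absolute log2 difference of 1 or more, and 476 by rank products, of which, in the same order, 308, 279, 398, 289 and 315 were among the 402.

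Replicate numbers are shared by the 2 populations, but the labels tie them to no animal or day. Deviations of arrays with the same number correlated at 0.296 for replicate 1 and 0.151 for replicate 2, over only 2 pairs. The unmatched CD24highCD49fmed replicate 3 correlated at 0.252 with CD24medCD49f-/low replicate 2. Deviations of the 2 CD24medCD49f-/low arrays mirror each other, so that each value recurs with opposite sign against the other array. The numbers were therefore not treated as a pairing. With the replicate block 829 rows were called, 507 higher and 322 lower, among them 398 of the 402.

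No gene named by rule changed direction in any setting run. The groups of these genes do not overlap, so that leaving out an array could not reverse a sign. The fit of all 14 arrays returns the same differences by construction. Of the 101 named by rule, 101 stayed called with array weights, with the block and without CD24highCD49fmed replicate 1, 94 with median centring, 94 on the median probe set, 83 after quantile normalization, 70 without CD24medCD49f-/low replicate 2, 52 and 3 without CD24highCD49fmed replicates 2 and 3, and 0 without CD24medCD49f-/low replicate 1 (limma adjusted p from 0.0706 to 0.412) or with all 14 arrays (0.0961 to 1).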

Other observations

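Genes outside the lists were also called, and the ones given here were chosen after their values were seen. Those that rose included Pde5a, the phosphodiesterase gene that breaks down cyclic GMP, which was 0.56, 0.37 and 0.80 on the CD24highCD49fmed arrays, against -0.65 and -0.35 on the CD24medCD49f-/low arrays (difference 1.08, SE 0.21, limma adjusted p = 0.0269). Steap1, a metalloreductase-family membrane protein gene, and Tmprss4, a membrane serine protease gene, rose by 1.38 and 1.37 (limma adjusted p = 0.0129 and 0.033). Those that fell included 2 phosphodiesterase genes, Pde9a, also specific for cyclic GMP, by 1.24, and Pde4b, specific for cyclic AMP, by 1.07 (limma adjusted p = 0.0222 and 0.0304). Anpep, which encodes CD13, was 0.89, 0.62 and 0.40 on the CD24highCD49fmed arrays, against 2.32 and 1.83 on the CD24medCD49f-/low arrays, and Mme, which encodes CD10, was -1.34, -0.76 and -1.08 against 0.05 and 0.38. The differences were -1.44 and -1.28, and that of the alkaline phosphatase gene Alpl was -1.29 (limma adjusted p = 0.0175, 0.0222 and 0.0247). Rb1, the retinoblastoma gene, and Deptor, an inhibitor of mTOR, fell by 1.14 and 1.17 (limma adjusted p = 0.0219 and 0.0201).

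Of 20 interferon response genes 1 rose and 1 fell, with a median of 0.02 (1 and 2 with a median of -0.15 after centring each array on its median). Of all rows 3.02% rose and 2.57% fell, so that the list as a whole did not stand out. Usp18, a protease gene that removes ISG15, was 1.89, 1.09 and 1.54 on the CD24highCD49fmed arrays, against -0.40 and 0.40 on the CD24medCD49f-/low arrays (limma adjusted p = 0.0311), and Ifit2, an RNA-binding effector gene, was -1.25, -0.51 and -0.82 against 0.06 and 0.33 (limma adjusted p = 0.0451).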
